A study of Homo sapiens with 9 samples.

Results

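The enzymes and inhibitors that a cancer cell uses to cut the matrix around it were followed on 9 expression arrays of hypoxic OEC-M1 cells. The 10 genes were the secreted matrix metalloproteinases MMP1, MMP2, MMP3, MMP9 and MMP10, the membrane-bound MMP14, the tissue inhibitors TIMP1 and TIMP2, the urokinase gene PLAU and the urokinase receptor gene PLAUR. The rule used gene names and no measured value, and took every non-control probe whose transcript RefSeq assigns to these symbols. The 10 genes themselves were chosen with earlier results of these data known. They made up 10 of 47753 genes and 11 of 58201 probes. Of the 47753, 22439 were RefSeq symbols. The rest were array transcript names without a matching symbol, each counted as a gene. Shares over all genes below include these unmatched names. OEC-M1 is a head and neck squamous cell carcinoma (HNSCC) line. Each group had 3 arrays: si-Control cells received a non-targeting siRNA, GATA3 knockdown cells a GATA3 siRNA and HIF-1α knockdown cells an siRNA to HIF-1α. All cells, the controls included, were kept at 1% O2 for 18 h and collected 72 h after transfection, so no comparison here is with normal oxygen. These arrays used 1 siRNA for each target, per the study, so the effect of the siRNA and that of its target were measured together. The study asked which genes respond under hypoxia to the loss of either factor.

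Matrix metalloproteinases are zinc-dependent proteases made as inactive precursors. Collagenases such as MMP1 open fibrillar collagen, gelatinases such as MMP2 and MMP9 cut the unfolded product and basement membrane collagen, and stromelysins such as MMP3 and MMP10 cut other matrix proteins and activate further precursors. MMP14 sits in the plasma membrane and, with TIMP2 as an adaptor, activates the MMP2 precursor. TIMPs bind the active site of these enzymes and block it. Urokinase, bound to its receptor at the cell surface, turns plasminogen into plasmin, which cuts fibrin and activates metalloproteinase precursors. In squamous carcinoma these systems are known for their activity at the invasive edge.

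Levels are log2 intensities after quantile normalization, in which 1 unit is a doubling. The median spot intensity ran from 992.5 to 3560 over the 9 arrays, and the scanner software marked 73.3% to 88.0% of the probes of an array as well above background. Of 13 squamous epithelial marker genes, 10 were well above background on all 9 arrays, among them KRT14, KRT17, TP63 and DSP, and KRT5 was on none. The same mark was given to 4 of 9 fibroblast, 5 of 6 leukocyte and 3 of 5 endothelial marker genes. Because most probes carry this mark, it does not separate cell types. In si-Control, the log2 of the summed intensity of the squamous list was 19.39 to 20.16. It was 15.7 to 17.05 for the fibroblast, 15.62 to 16.76 for the leukocyte and 12.54 to 14.18 for the endothelial list. The targets followed their labels. The GATA3 level was 10.71, 11.12 and 11.48 in si-Control, 9.64, 9.48 and 10.40 in GATA3 knockdown and 10.30, 11.11 and 10.78 in HIF-1α knockdown, and it was lower in GATA3 knockdown than in si-Control (log2 fold change -1.27 ± 0.34 SE, 95% interval -2.01 to -0.52, limma, adjusted P = 1). The HIF1A level was 16.71, 16.24 and 17.24 in si-Control, 17.02, 16.03 and 16.99 in GATA3 knockdown and 14.51, 14.13 and 14.59 in HIF-1α knockdown, and it was lower in HIF-1α knockdown than in si-Control (log2 fold change -2.32 ± 0.35 SE, 95% interval -3.10 to -1.54, limma, adjusted P = 0.295).

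RefSeq promoter windows of 250 bases before the start site were used for 5 of the 10 genes, as 6 sequences on GRCh38.p14. The windows of MMP10 and PLAUR are shown because these are the genes that passed the threshold in a comparison below. MMP10 lies on the minus strand of chromosome 11, where RefSeq places it next to MMP1 and then MMP3, and its window is chr11:102780629-102780878. PLAUR lies on the minus strand of chromosome 19 and its window is chr19:43670170-43670419. Both are printed 5′ to 3′ in the direction of transcription, with matches to the searched motifs in capitals.
MMP10: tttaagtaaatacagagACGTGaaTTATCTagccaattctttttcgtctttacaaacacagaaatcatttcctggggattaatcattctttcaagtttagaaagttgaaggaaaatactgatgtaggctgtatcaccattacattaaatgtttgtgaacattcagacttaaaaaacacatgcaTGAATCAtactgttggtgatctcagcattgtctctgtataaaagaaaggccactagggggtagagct
PLAUR: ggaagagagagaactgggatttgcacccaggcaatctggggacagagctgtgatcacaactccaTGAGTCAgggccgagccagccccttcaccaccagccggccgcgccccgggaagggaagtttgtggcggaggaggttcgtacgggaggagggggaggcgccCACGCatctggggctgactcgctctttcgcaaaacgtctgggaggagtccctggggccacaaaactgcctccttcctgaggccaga
The letters searched on both strands were TGANTCA for AP-1, ACGTG and GCGTG for the core of the hypoxia response element, and AGATAA and TGATAA for GATA factors. In TGANTCA, N stands for any base. In the MMP10 window, the first capitals are ACGTG at position -233 from the start site, and the next are AGATAA on the opposite strand at -226. The last are TGAATCA at -67, a match to TGANTCA. In the PLAUR window, the capitals are TGAGTCA at -186, also a match to TGANTCA, and GCGTG on the opposite strand at -86. Among the other windows, a hypoxia response core was present upstream of MMP14, TIMP1 and the second PLAU start site, and TGATAA was present upstream of the first PLAU start site. Over 35116 RefSeq windows of the same length, TGANTCA was found in 6.57%, either hypoxia core in 43.2% and either GATA form in 14.6%. These matches describe the letters only, and binding was not measured.

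In each comparison 0 or 1 of the 10 genes passed the threshold, close to what the share over all genes would give. In GATA3 knockdown against si-Control, 0 of the 10 passed an unadjusted limma P of 0.05, the threshold of the study, where 2.97% of all 47720 genes tested did. In HIF-1α knockdown against si-Control, 1 of the 10 passed, MMP10, where 5.23% of all 47368 genes did. Between the knockdowns (GATA3 knockdown minus HIF-1α knockdown throughout), 1 of the 10 passed, PLAUR, where 12.0% of all 47356 genes did. After Benjamini-Hochberg adjustment over all genes, 0 of the 10 passed in any of the 3 comparisons. Of all genes, 0%, 0% and 0.00422% passed after this adjustment in the same order. The first 2 comparisons share their si-Control arrays and are therefore not independent.

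The median log2 fold change of the 10 genes was 0.13 in GATA3 knockdown, 0.13 in HIF-1α knockdown and 0.01 between the knockdowns, against -0.02, -0.01 and 0.00 over all genes tested. These medians include MMP3, which was at background on every array. Their median absolute log2 fold change was 0.19, 0.28 and 0.46 in the same order, against 0.21, 0.28 and 0.37 over all genes. Of the 9 genes with a value on every array, the 3 arrays of one group lay wholly above those of the other for 0 genes in either knockdown against si-Control, where 6.03% and 13.3% of all genes did so. Between the knockdowns this was the case for 2 of the 9, MMP14 and PLAUR, where 22.8% of all genes did so. The RNA came from whole cultures, so fewer cells expressing a gene and less RNA per cell cannot be told apart.

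**Figure D1:**
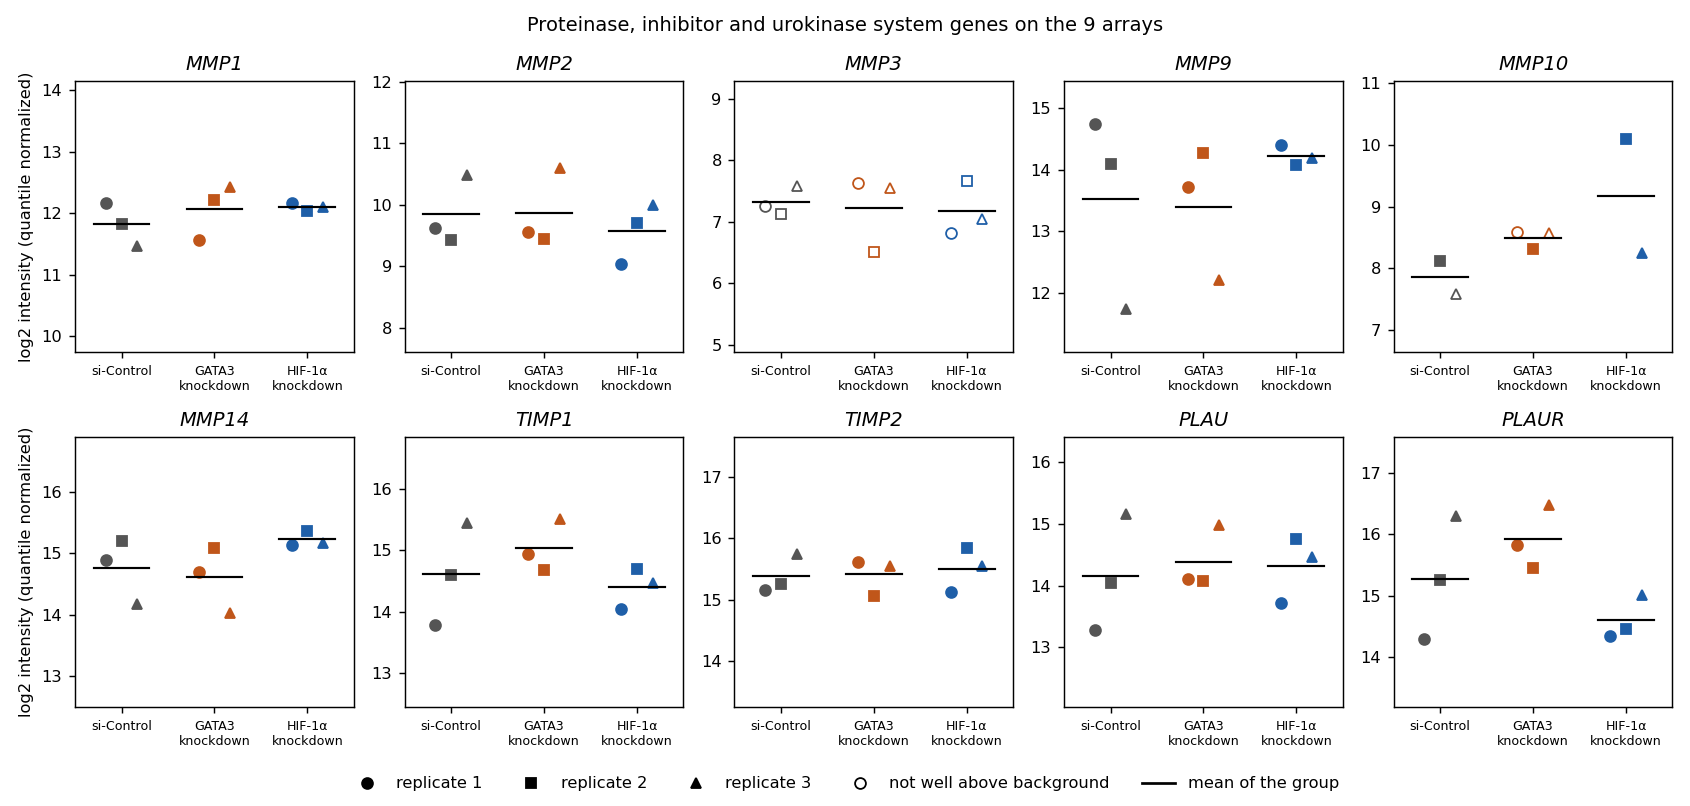
Log2 intensity of the 10 genes on the 9 arrays, 1 panel per gene, with the arrays grouped by siRNA, the replicate as the shape of the point, open points for probes not well above background and a line at the group mean. PLAUR is the only panel in which all 3 GATA3 knockdown points lie above all 3 HIF-1α knockdown points, and MMP10 has 2 points missing because their spots were marked as non-uniform.

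**Figure D2:**
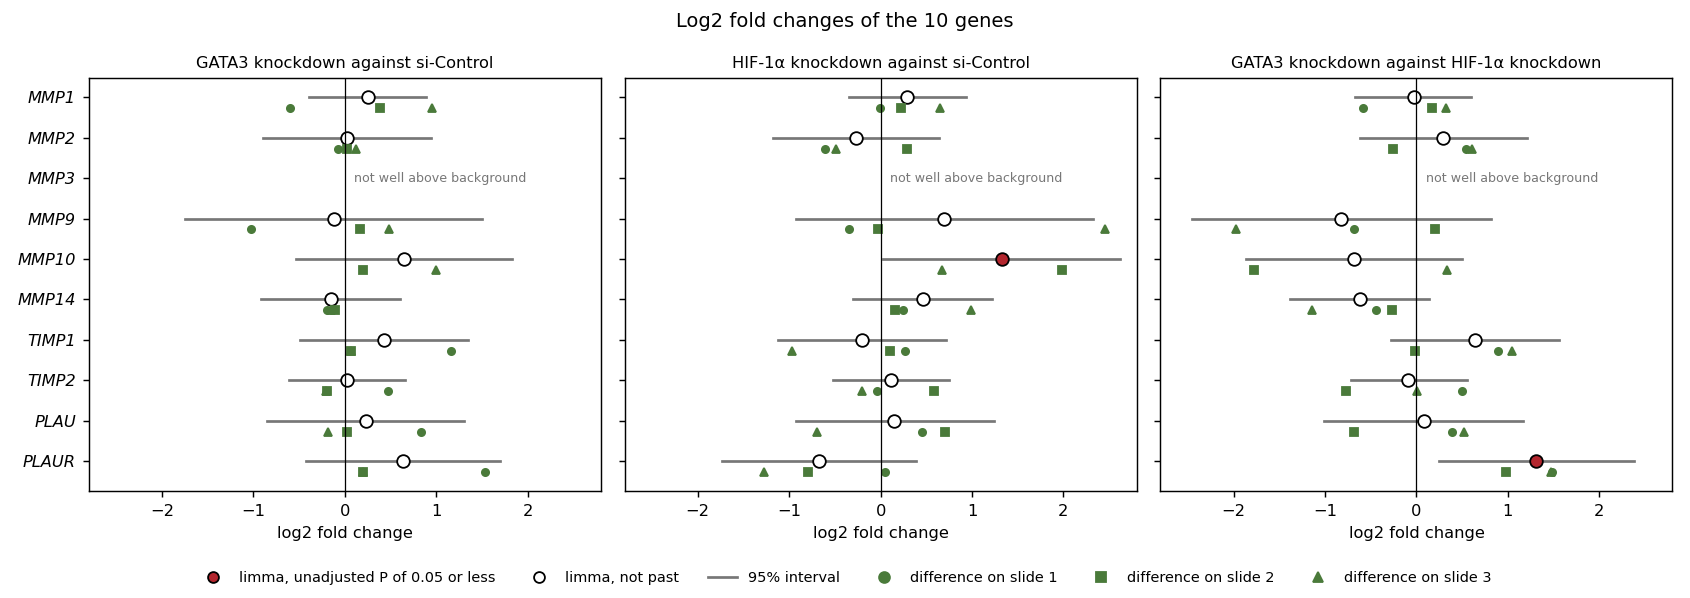
Log2 fold change in the 3 comparisons of the 9 genes that were well above background on an array (MMP3 was on none), with the limma estimate and its 95% interval above and the difference on each of the 3 slides below it. Filled points, MMP10 in HIF-1α knockdown against si-Control and PLAUR between the knockdowns, are those at an unadjusted P of 0.05 or less.

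Among the secreted enzymes, MMP1, the interstitial collagenase, had a probe that was printed 10 times on each array. The SD between these spots within an array was 0.12 to 0.24. The MMP1 level was 12.17, 11.82 and 11.47 in si-Control, 11.57, 12.21 and 12.43 in GATA3 knockdown and 12.17, 12.04 and 12.11 in HIF-1α knockdown. The groups overlapped, with an SD between arrays of 0.35, 0.44 and 0.06 in the same order (n = 3 each). The log2 fold change was 0.25 in GATA3 knockdown (95% interval -0.39 to 0.89), 0.29 in HIF-1α knockdown (-0.35 to 0.93) and -0.03 between the knockdowns (-0.67 to 0.60). These intervals leave room for changes of either sign.

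The gelatinases MMP2 and MMP9 did not pass in any comparison. The MMP2 level was 9.84 ± 0.56 in si-Control, 9.87 ± 0.63 with GATA3 knockdown and 9.57 ± 0.49 with HIF-1α knockdown (mean ± SD, n = 3 each), and its log2 fold changes were 0.03, -0.27 and 0.29 with an SE of 0.41. The third replicate held the highest MMP2 level in each group, at 10.48, 10.59 and 9.99. MMP9 had the largest SE of the 10 genes, 0.73. Its level was 14.74, 14.10 and 11.74 in si-Control, 13.72, 14.27 and 12.21 in GATA3 knockdown and 14.40, 14.07 and 14.19 in HIF-1α knockdown. The third replicate was far below the other 2 in si-Control and in GATA3 knockdown, whereas the 3 HIF-1α knockdown arrays lay close together. The log2 fold change of MMP9 was -0.12 in GATA3 knockdown (95% interval -1.75 to 1.5), 0.69 in HIF-1α knockdown (-0.93 to 2.32) and -0.82 between the knockdowns (-2.45 to 0.81). On the third slide alone the difference between HIF-1α knockdown and si-Control was 2.45, against -0.34 and -0.03 on the first and second slides.

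The stromelysins were close to the detection limit. MMP3 was not well above background on any of the 9 arrays, with levels between 6.51 and 7.66, so no fold change of its own is given. MMP10 (stromelysin-2) was well above background on all 3 HIF-1α knockdown arrays, 2 of 3 si-Control arrays and 1 of 3 GATA3 knockdown arrays. The scanner software marked its spot as non-uniform on the first si-Control array and on the first HIF-1α knockdown array, and both values were left out. The remaining MMP10 levels were 8.12 and 7.58 in si-Control, 8.59, 8.31 and 8.57 in GATA3 knockdown and 10.10 and 8.25 in HIF-1α knockdown. Of the HIF-1α knockdown arrays only the second stood apart, and the third lay close to the second si-Control array.

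MMP10 was higher in HIF-1α knockdown than in si-Control by a log2 fold change of 1.33 ± 0.56 SE (2.51-fold, 95% interval 0.03 to 2.62, limma, adjusted P = 0.823), with 2 arrays in each group. The difference was 1.98 on the second slide and 0.67 on the third. In GATA3 knockdown the MMP10 log2 fold change was 0.65 ± 0.51 SE and between the knockdowns it was -0.68, and neither passed. With the non-uniform spots kept, the first si-Control array stood at 10.17 and the first HIF-1α knockdown array at 8.07, and the log2 fold change of HIF-1α knockdown against si-Control was 0.17 ± 0.68 SE and did not pass. Without the second HIF-1α knockdown array it was 0.40 ± 0.42 SE, and with a block for the replicate number it was 1.33 ± 0.77 SE, and neither passed. It also no longer passed without the second si-Control array (1.60), the third si-Control array (1.06) or any 1 of the GATA3 knockdown arrays (1.33 each), which enter the estimate of the spread.

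MMP14, the membrane-type enzyme, had its highest group mean in HIF-1α knockdown. Its level was 14.89, 15.20 and 14.18 in si-Control, 14.70, 15.09 and 14.03 in GATA3 knockdown and 15.14, 15.36 and 15.17 in HIF-1α knockdown. Every HIF-1α knockdown array lay above every GATA3 knockdown array, and the second si-Control array lay among the former. The difference between the knockdowns was -0.44, -0.27 and -1.14 on the 3 slides, with a log2 fold change of -0.62 ± 0.34 SE (95% interval -1.38 to 0.14, limma, adjusted P = 0.448). With a block for the replicate number the same difference passed, as it did without the second GATA3 knockdown array (-0.86). It did not pass with the number as a random block (-0.62 ± 0.28 SE), and with array brightness (the median log2 spot intensity) as a covariate it was -0.29 ± 0.29 SE. Against si-Control, the MMP14 log2 fold change was -0.15 for GATA3 knockdown and 0.46 for HIF-1α knockdown, and neither passed. With the brightness covariate the latter was 0.15.

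The inhibitors did not pass in any comparison. The TIMP1 level was 13.78, 14.60 and 15.44 in si-Control, 14.94, 14.67 and 15.51 in GATA3 knockdown and 14.05, 14.69 and 14.47 in HIF-1α knockdown. The si-Control arrays alone ran from the lowest TIMP1 level of all 9 arrays to nearly the highest. The log2 fold change of TIMP1 was 0.43 for GATA3 knockdown (95% interval -0.49 to 1.35), -0.20 in HIF-1α knockdown (-1.12 to 0.72) and 0.64 between the knockdowns (-0.28 to 1.56). Without the third si-Control array the GATA3 knockdown value of TIMP1 was 0.85 and passed the unadjusted threshold. With the brightness covariate the TIMP1 value between the knockdowns was 0.06 ± 0.21 SE. TIMP2, which also serves as the adaptor between MMP14 and the MMP2 precursor, had a smaller SE than TIMP1. Its level was 15.39 ± 0.32 in si-Control, 15.41 ± 0.31 with GATA3 knockdown and 15.50 ± 0.36 with HIF-1α knockdown (mean ± SD, n = 3 each). The 95% interval of its log2 fold change was -0.61 to 0.66 in GATA3 knockdown, -0.52 to 0.75 in HIF-1α knockdown and -0.72 to 0.55 between the knockdowns.

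In the urokinase system, the receptor gene differed between the knockdowns and the protease gene did not pass. The PLAUR level was 14.29, 15.25 and 16.29 in si-Control, 15.82, 15.45 and 16.48 in GATA3 knockdown and 14.34, 14.46 and 15.01 in HIF-1α knockdown. All GATA3 knockdown arrays lay above all HIF-1α knockdown arrays, and the si-Control arrays spanned nearly the whole range. Between the knockdowns, PLAUR was higher where GATA3 had been targeted, by a log2 fold change of 1.31 ± 0.48 SE (2.48-fold, 95% interval 0.25 to 2.38, limma, adjusted P = 0.384). The difference was 1.48, 0.98 and 1.47 on the 3 slides. Against si-Control the PLAUR log2 fold change was 0.64 in GATA3 knockdown (95% interval -0.42 to 1.70) and -0.67 in HIF-1α knockdown (-1.73 to 0.39), so a difference of either knockdown from si-Control was not shown.

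The PLAUR difference between the knockdowns kept its direction and passed unadjusted under 14 of 14 other settings, with values between 0.67 and 1.42. PLAUR had 1 probe and no spot marked as non-uniform, so the settings on probe choice and marked spots could change it little. The difference also passed in 6 of the 9 fits that left out 1 array. Leaving out a si-Control array keeps this fold change and alters only the estimate of the spread. The difference no longer passed without the third GATA3 knockdown array (1.03 ± 0.52 SE), the first HIF-1α knockdown array (1.18 ± 0.56) or the second HIF-1α knockdown array (1.24 ± 0.56). Against si-Control, leaving out 1 control array moved the values further. Without the third si-Control array the GATA3 knockdown value was 1.15, and without the first the HIF-1α knockdown value was -1.16, and both passed the unadjusted threshold.

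**Figure D3:**
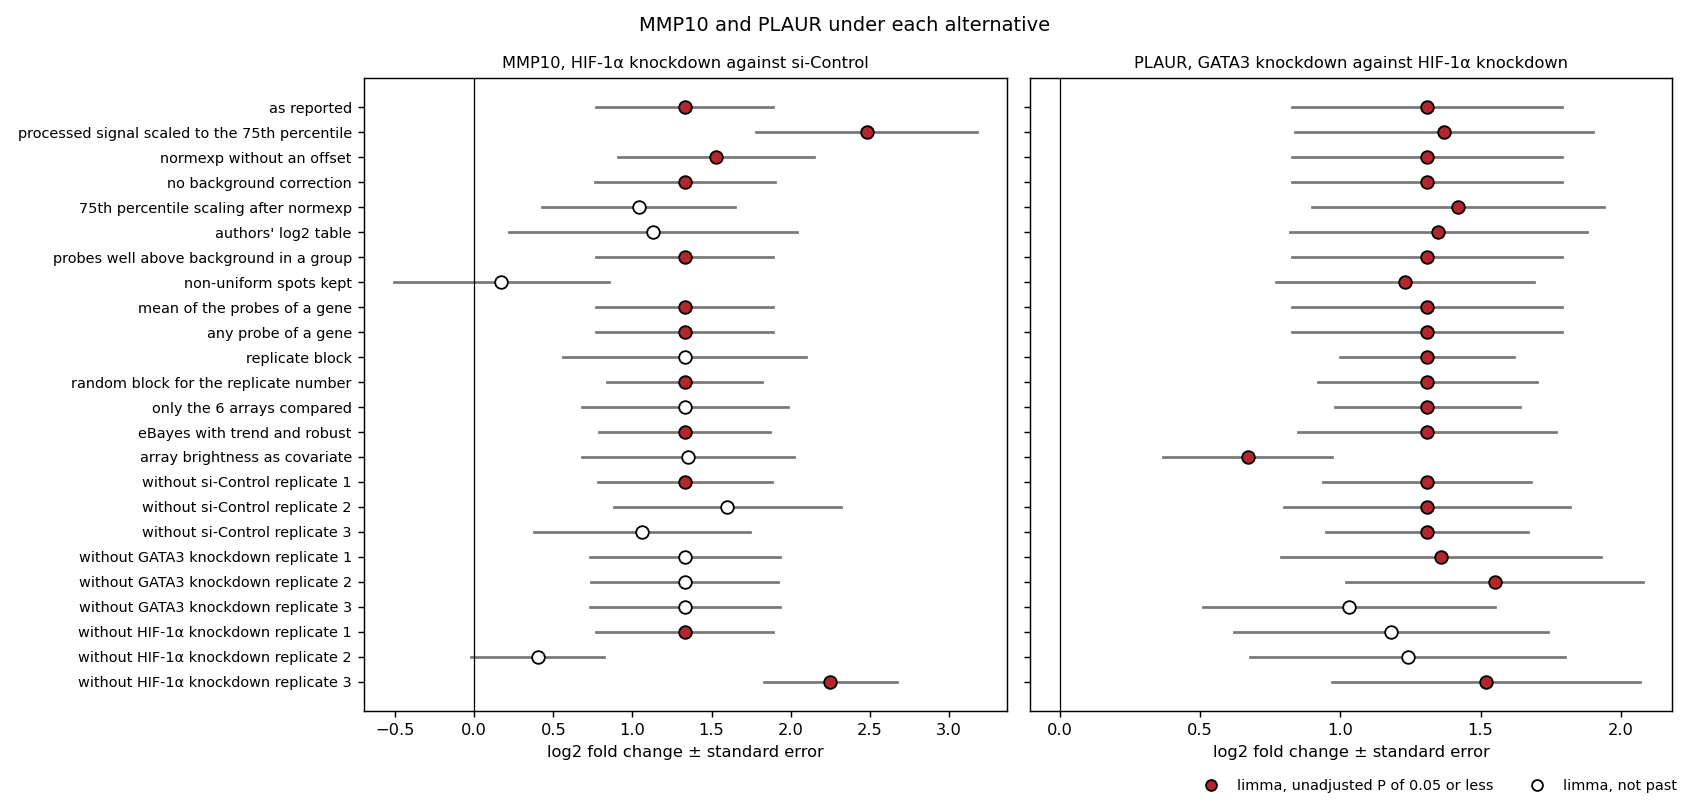
Log2 fold change ± SE of MMP10 in HIF-1α knockdown against si-Control (left) and of PLAUR in GATA3 knockdown against HIF-1α knockdown (right) as reported, under each other setting and without each array, filled where the unadjusted limma P was 0.05 or less. PLAUR stays between 0.67 and 1.55, whereas MMP10 ranges from 0.17 with the non-uniform spots kept to 2.48 with the scanner's processed signal.

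PLAU, the urokinase gene itself, had 2 probes. The level of its brighter probe was 13.27, 14.04 and 15.17 in si-Control, 14.11, 14.07 and 14.98 in GATA3 knockdown and 13.72, 14.75 and 14.46 in HIF-1α knockdown, so the groups overlapped throughout. Its log2 fold changes were 0.23, 0.15 and 0.08 in the 3 comparisons (SE 0.48), and those of the other probe were 0.31, 0.10 and 0.21 (SE 0.57). The probes had the same sign in each comparison, and neither passed in any. The 95% interval of the brighter probe was -0.85 to 1.31 in GATA3 knockdown and -0.93 to 1.24 in HIF-1α knockdown.

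For 6 of these genes, the 2 dimmest arrays held the 2 highest or the 2 lowest levels. How many of all genes share this was not counted. The third si-Control array and the third GATA3 knockdown array had the lowest median spot intensity, 992.5 and 1410. These 2 arrays had the lowest MMP9 and MMP14 levels and the highest MMP2, TIMP1, PLAU and PLAUR levels of all 9. MMP1 went opposite ways, lowest on the third si-Control array (11.47) and highest on the third GATA3 knockdown array (12.43). MMP10 had its lowest level on the former (7.58). The first principal component of all genes held 53.9% of the variance and placed the same 2 arrays at one end. On the third si-Control array, the MMP9 level less the mean of the other 2 si-Control arrays was -2.69, and 0.506% of all genes differed by more. PLAU, PLAUR and TIMP1 were 1.51, 1.52 and 1.25 above that mean, and 8.35%, 8.3% and 15.5% of all genes differed by more. MMP2 was 0.95 above it and MMP14 differed by -0.87, and 28.6% and 33.3% of all genes differed by more.

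With the median log2 spot intensity of each array as a covariate, the PLAUR log2 fold change between the knockdowns was 0.67 ± 0.30 SE in place of 1.31, and that in GATA3 knockdown against si-Control was 0.61 in place of 0.64. Both then passed the unadjusted threshold. The PLAUR value in HIF-1α knockdown against si-Control was -0.06 ± 0.29 SE in place of -0.67. The PLAU value between the knockdowns turned from 0.08 to -0.62 and in HIF-1α knockdown went from 0.15 to 0.82, and both passed. The MMP9 value between the knockdowns turned from -0.82 to 0.25 and did not pass. The median spot intensity was 2807.5, 2126.5 and 992.5 in si-Control and 1627, 2452 and 1410 in GATA3 knockdown. In HIF-1α knockdown it was 3560, 2132 and 2502.5. Brightness thus differed in part with group, and the 2 cannot be fully told apart. Each group lay at the same array position on all 3 slides, so position and group cannot be told apart.

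**Figure D4:**
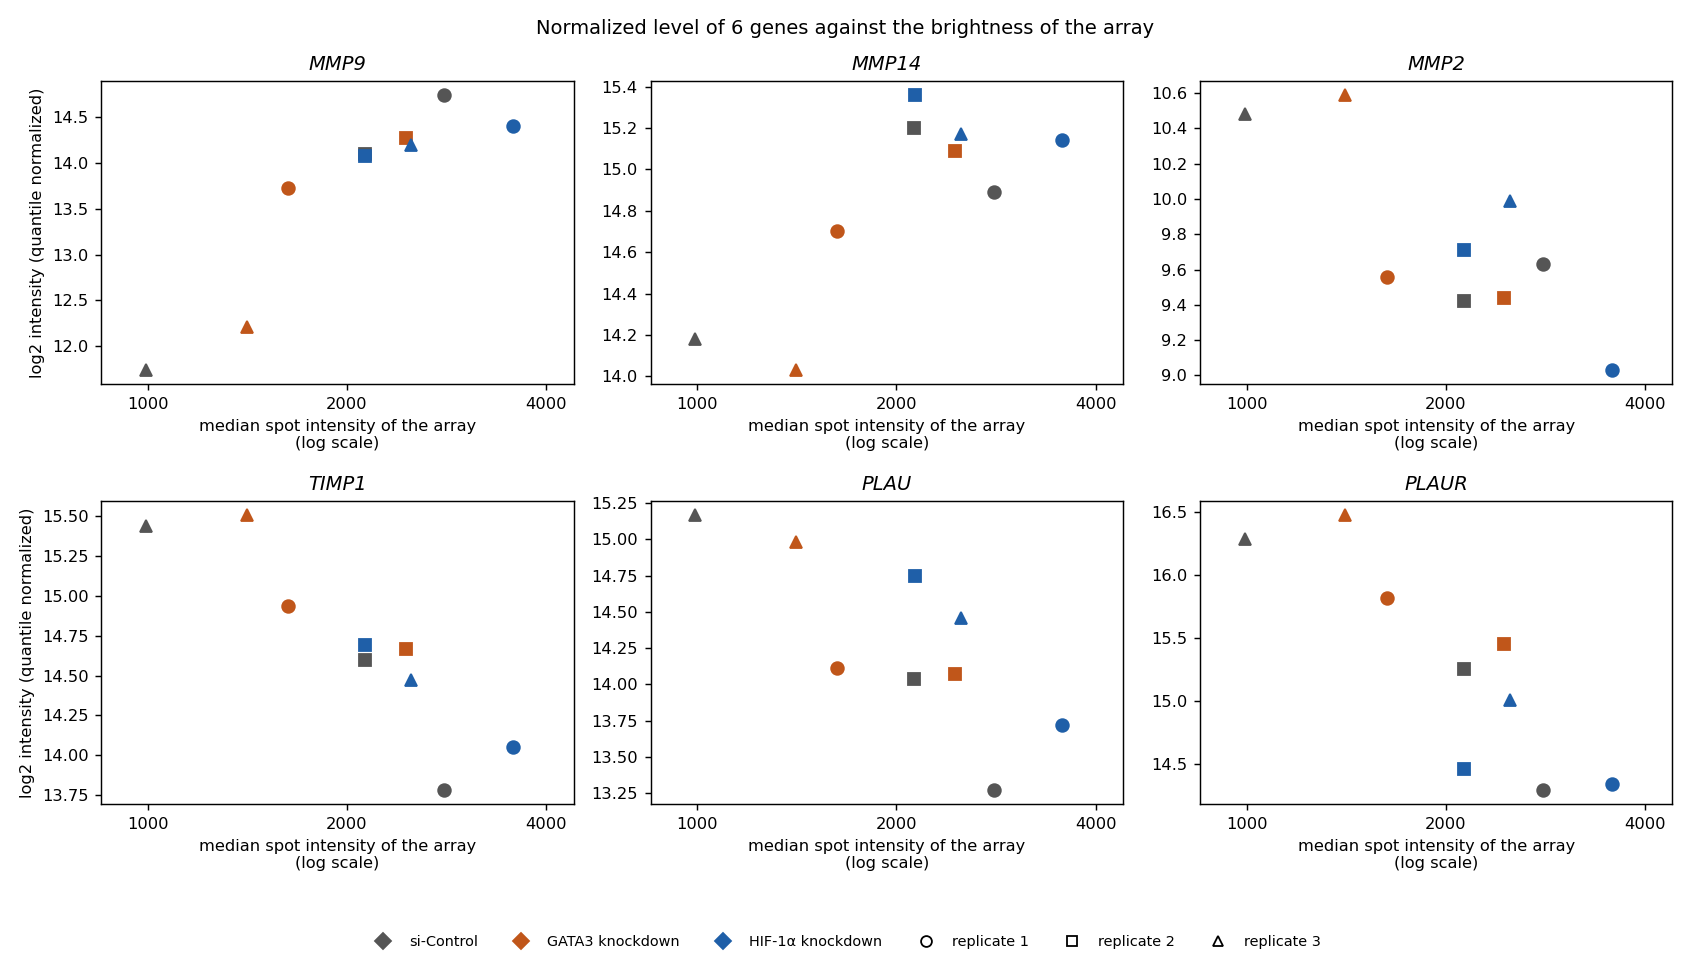
Log2 intensity of MMP9, MMP14, MMP2, TIMP1, PLAU and PLAUR on each array against the median spot intensity of that array on a log scale, coloured by group and shaped by replicate. MMP9 and MMP14 are lowest and MMP2, TIMP1, PLAU and PLAUR are highest on the 2 dimmest arrays, at 992.5 and 1410. These arrays belong to si-Control and GATA3 knockdown, and no HIF-1α knockdown array is as dim.

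Other genes of pericellular proteolysis were counted by list. Of all genes tested, 2.97% passed in GATA3 knockdown, 5.23% in HIF-1α knockdown and 12.0% between the knockdowns. Of 17 further matrix metalloproteinases, 0 passed in GATA3 knockdown, 1 was higher and 0 lower in HIF-1α knockdown, and 1 passed between the knockdowns, lower in GATA3 knockdown. The gene was MMP15 in both cases, which like MMP14 is anchored in the membrane. The MMP15 level was 12.77, 12.64 and 12.01 in si-Control, 12.62, 12.61 and 11.96 in GATA3 knockdown and 13.38, 13.33 and 13.37 in HIF-1α knockdown, so all HIF-1α knockdown arrays lay above all others. MMP15 was higher in HIF-1α knockdown than in si-Control by a log2 fold change of 0.89 ± 0.28 SE (limma, adjusted P = 0.823), and it passed in 9 of 9 fits that left out 1 array. The median log2 fold change of the 17 was 0.00, -0.14 and 0.11 in the 3 comparisons. Of 4 further inhibitors, TIMP3, TIMP4, RECK and A2M, 0 passed in any comparison, with log2 fold changes between -0.54 and 0.72. These counts use the brightest probe of each gene. A dimmer RECK probe, well above background on 1 array, passed in GATA3 knockdown against si-Control (0.6).

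Of 12 genes of plasminogen activation, 0 passed in either knockdown against si-Control, where 2.97% (GATA3) and 5.23% (HIF-1α) of all genes did. Between the knockdowns, where 12.0% of all genes passed, 1 was lower in GATA3 knockdown. This was PLG, the plasminogen gene (log2 fold change -0.94), whose probe was well above background on 1 of 3 arrays of the GATA3 knockdown group and whose non-uniform spot on the third HIF-1α knockdown array was left out. It no longer passed without the second GATA3 knockdown array (-0.73), the first HIF-1α knockdown array (-0.92) or the second (-0.95). The median log2 fold change of the 12 was -0.10, -0.23 and 0.05. These values and counts use the brightest probe of each gene. The other ANXA2 probe was lower in HIF-1α knockdown than in si-Control (-0.84) and passed. The other LRP1 probe was higher in GATA3 knockdown between the knockdowns (1.04) and passed.

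Of 16 ADAM and other matrix or activating proteases, 2 were lower in GATA3 knockdown than in si-Control, where 2.97% of all genes passed. In HIF-1α knockdown 0 passed, against 5.23% of all genes. Between the knockdowns, where 12.0% of all genes passed, 3 were higher and 3 lower in GATA3 knockdown. CTSD, the lysosomal aspartic protease cathepsin D, was 14.35, 14.58 and 15.14 in si-Control, 13.86, 13.52 and 14.13 in GATA3 knockdown and 14.80, 14.83 and 14.83 in HIF-1α knockdown. It was lower in GATA3 knockdown than in si-Control by a log2 fold change of -0.85 ± 0.27 SE (limma, adjusted P = 1) and than in HIF-1α knockdown by -0.98, and both passed in 9 of 9 fits that left out 1 array. ADAM15, a membrane-anchored metalloproteinase, was lower in GATA3 knockdown than in si-Control by -0.65 and than in HIF-1α knockdown by -0.68, and the first of these passed in 5 of 9 such fits. It was lost without the first or the third array of si-Control or of GATA3 knockdown, and the other without the second or the third HIF-1α knockdown array. FURIN, a convertase that activates the MMP14 precursor, was lower in GATA3 knockdown in the comparison between the knockdowns, by -0.86, and no longer passed without the first (-0.78) or second (-0.73) GATA3 knockdown array. The sheddase genes ADAM17, ADAM9 and ADAM10 were higher in GATA3 knockdown in the same comparison, by 0.97, 0.91 and 0.82, and passed in 4, 5 and 4 of 9 such fits in that order. All of them were lost without the first GATA3 knockdown array, the third GATA3 knockdown array or the first HIF-1α knockdown array. ADAM17 and ADAM9 were lost also without the second HIF-1α knockdown array, ADAM10 also without the third, and ADAM17 and ADAM10 also without the second si-Control array. With array brightness as a covariate the values of these sheddase genes were 0.41, 0.53 and 0.40 and none passed. The median log2 fold change of the 16 was 0.09, -0.01 and 0.20. All these values use the brightest probe of each gene. The other ADAM15 probe passed between the knockdowns (-0.83) and not in GATA3 knockdown against si-Control (-0.6). The other ADAM10 probe did not pass between the knockdowns (0.79). Of the genes not named, another probe passed for HPSE in GATA3 knockdown (0.86) and for ADAM12 between the knockdowns (-0.53). So did another ADAMTS1 probe (1.27), well above background on 1 array.

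AP-1 and ETS factors are known to act on promoters of many of these protease genes. Of 9 such genes, 0 passed in GATA3 knockdown and 1 was lower in HIF-1α knockdown, where 2.97% and 5.23% of all genes passed. Between the knockdowns, where 12.0% of all genes passed, 2 were higher in GATA3 knockdown. ETS1 was 14.45, 15.62 and 16.63 in si-Control, 16.28, 15.49 and 16.84 in GATA3 knockdown and 12.91, 13.69 and 14.29 in HIF-1α knockdown. All HIF-1α knockdown arrays lay below all others. ETS1 was lower in HIF-1α knockdown than in si-Control by a log2 fold change of -1.94 ± 0.57 SE (limma, adjusted P = 0.823) and differed between the knockdowns by 2.57 (limma, adjusted P = 0.213). With array brightness as a covariate these values were -1.16 and 1.76 and both passed. FOSL1, the AP-1 subunit FRA-1, was 16.05, 15.89 and 17.28 in si-Control, 17.46, 16.28 and 17.56 in GATA3 knockdown and 15.02, 14.70 and 16.14 in HIF-1α knockdown, and was higher in GATA3 knockdown between the knockdowns by 1.81 ± 0.51 SE (limma, adjusted P = 0.32). The median log2 fold change of the 9 was 0.29, -0.51 and 0.73. After adjustment over all genes, 0 genes of any of the 5 lists passed in any comparison.

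**Figure D5:**
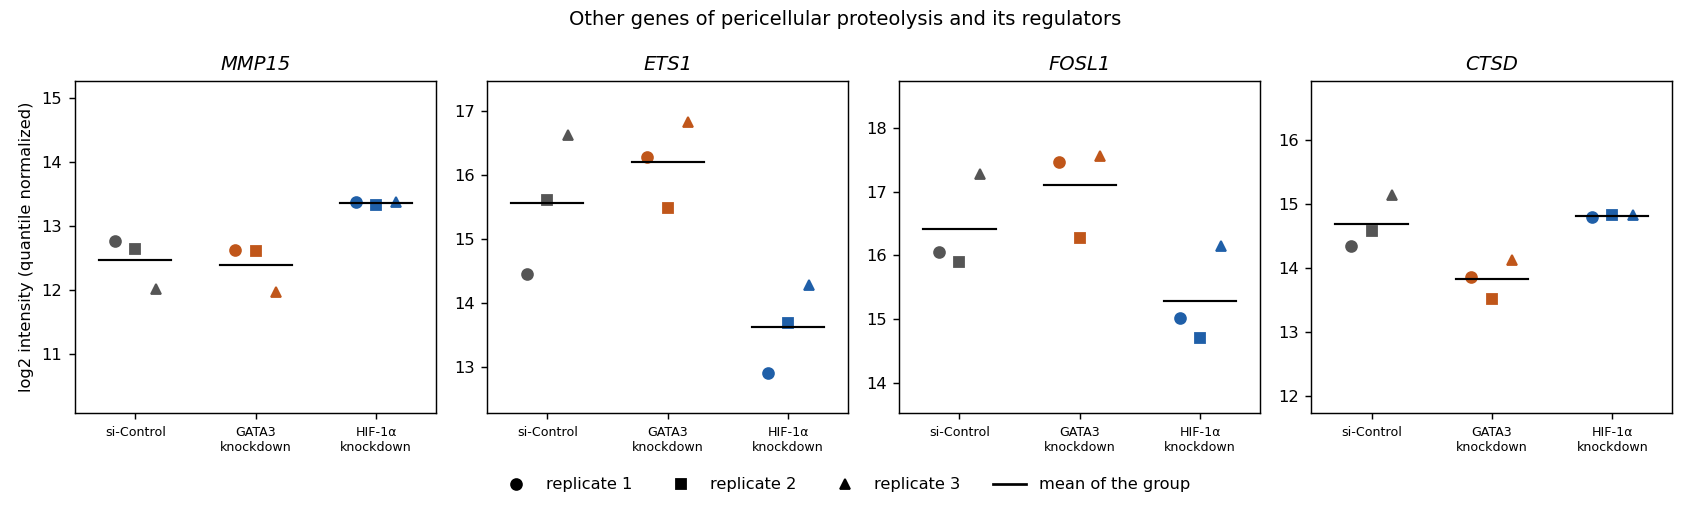
Log2 intensity of MMP15, ETS1, FOSL1 and CTSD on the 9 arrays, grouped by siRNA, with the replicate as the shape of the point and a line at the group mean. MMP15 is highest and ETS1 lowest on the HIF-1α knockdown arrays, and CTSD is lowest on the GATA3 knockdown arrays.

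The genes whose profile over the arrays was most like that of the 2 genes past the threshold were found by the root mean square difference of profiles centred on their own mean. For PLAUR, over 9 arrays and 17529 candidate genes, they were MAD1L1 (0.138) and MYH15 (0.142), where the median candidate differed by 0.73. For MMP10, over 7 arrays and 18662 candidates, they were SMPD3 (0.24) and TRIM72 (0.259), where the median candidate differed by 0.829. They are the closest of many candidates over few arrays, and no more is read from them.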

How the data were processed

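The authors deposited 1 scanner file per array (Agilent human expression arrays, 1 dye, Feature Extraction 10.5.1.1 per the labels), with each spot's median intensity, local background intensity and processed intensity on a linear scale, not normalized between arrays, and marks for non-uniform spots and for spots well above background. A series table of log2 values, also deposited, on every array matched the log2 processed intensity less 1 constant within 0.001. Column medians of that table ran from -2.07 to -2.40.

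Following the methods of the study, non-uniform spots were excluded, background correction came next, then quantile normalization (here without control spots), and groups were compared in limma. The methods name neither the background method nor how probes stood for genes. Here normexp (offset 50, on the median signal) was used, repeat spots were averaged per probe, and each gene was represented by its brightest probe. The 3 groups were fitted in 1 limma 3.58.1 model in R 4.3.3, two-sided, at an unadjusted P of 0.05, with Benjamini-Hochberg adjustment over all genes. Of 58201 probes, 31104 matched a RefSeq symbol (22439 symbols). Probes without a symbol were kept under their transcript name and counted among all genes. No probe was removed for low intensity.

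The 10 genes and the gene lists were chosen with earlier results of these data known, and other genes of the lists were named where they passed the unadjusted threshold in a comparison and had a probe marked well above background on every array of some group. One listed gene is not reported here and was left out of its list's counts. The labels number the replicates but do not say that they came from separate cultures, so P values measure the spread between these arrays, which may be technical. Precision is limited by how many arrays there are. Each slide held the 3 arrays of 1 replicate number. Arrays with the same number were compared by the correlation (r) of their deviations from their group means over all genes. Between si-Control and GATA3 knockdown, r was 0.234, 0.577 and 0.724 for replicates 1, 2 and 3. For HIF-1α knockdown, r was 0.623, 0.114 and 0.0866 with si-Control, and 0.346, -0.192 and 0.123 with GATA3 knockdown. Its replicate 1 array thus deviated together with the others of that number, and replicates 2 and 3 did so little or not at all. The reported fits did not pair the arrays. The number was used for the differences by slide and in the settings with a replicate block. Alternatives covered the background correction, normalization, the authors' table, dim probes, marked spots, probe choice, blocks, arrays in the fit, the variance model, adjustment, array brightness and each array left out. RefSeq names and promoters are on GRCh38.p14, and the files name hg19, so no other coordinates are given.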

Additional observations from a re-analysis of the deposited data

How the results depend on the processing

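For the 27 log2 fold changes of the 9 genes above background on an array (3 comparisons each), 355 of 378 values under other settings kept their direction and their side of the threshold, 6 no longer passed, 3 passed where they had not and 14 changed sign. Of those that changed sign, 1 passed. Of the 9 genes only PLAU had more than 1 probe, so the settings on probe choice could not move the fold changes of the others. The replicate block (MMP14 and PLAUR) and array brightness as a covariate (PLAU and PLAUR) gave 2 genes past the threshold between the knockdowns, and adjustment gave 0. The brightness covariate gave 1 (PLAUR) in GATA3 knockdown. In HIF-1α knockdown, the brightness covariate lost MMP10 (1.35 ± 0.67 SE) and gave PLAU instead. MMP10 was lost and 0 remained under 75th percentile scaling after normexp, in the authors' log2 table, with non-uniform spots kept, with the replicate block, with only the 6 arrays compared and after adjustment. Without 1 array, 0 to 2 genes passed in each comparison. MMP10 in HIF-1α knockdown passed under 8 of 14 other settings, so its call depended on the setting. The cause was not tested. The replicate block changed no other call of the 10 genes. It moved the share of all genes past the threshold from 2.97% to 4.99% in GATA3 knockdown, from 5.23% to 8.41% in HIF-1α knockdown and from 12.0% to 18.7% between the knockdowns, and the random block gave 5.01%, 8.58% and 18.3%, with a correlation of 0.232 between arrays of 1 number. The brightness covariate gave 10.1% in GATA3 knockdown, the processed signal 6.39%, the log2 values of the authors gave 6.05% and the fit of 6 arrays 1.94%, and the last gave 18.2% between the knockdowns. Without 1 array, the share was 2.00% to 12.7% in GATA3 knockdown, 2.98% to 10.1% in HIF-1α knockdown and 5.69% to 20.5% between the knockdowns.

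Sign changes were as follows. With non-uniform spots kept, MMP10 in GATA3 knockdown was -0.13. With the brightness covariate, values between the knockdowns were 0.15 for MMP1, -0.18 for MMP2, 0.25 for MMP9 and -0.62 for PLAU, which passed, and values in HIF-1α knockdown were 0.19 for MMP2, -0.33 for MMP9 and 0.35 for TIMP1. With the processed signal, GATA3 knockdown values were -0.05 for MMP2 and -0.02 for TIMP2, and in the authors' table they were -0.07 and -0.04. With 75th percentile scaling after normexp, which moved the median of all genes between the knockdowns from 0.00 to 0.15, TIMP2 was 0.12 between the knockdowns and -0.08 in HIF-1α knockdown.

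Without 1 array, 200 of 243 values kept direction and call, and 29 changed sign, none of which passed. These counts include fits without an array of the group outside a comparison, which cannot change the direction of its fold change. For genes with a change of sign, values in GATA3 knockdown ran from -0.44 to 0.14 for MMP14, from -0.34 to 0.34 for MMP2, from -1.02 to 0.48 for MMP9, from -0.22 to 0.73 for PLAU and from -0.09 to 0.21 for TIMP2. In HIF-1α knockdown they ran from -0.48 to 0.05 for MMP2, from -0.20 to 1.30 for MMP9, from -0.29 to 0.66 for PLAU, from -0.61 to 0.22 for TIMP1 and from -0.05 to 0.30 for TIMP2. Between the knockdowns they ran from -1.61 to 0.24 for MMP10, from -0.21 to 0.21 for MMP1, from -0.07 to 0.51 for MMP2, from -0.22 to 0.29 for PLAU and from -0.28 to 0.09 for TIMP2. Of the 10 genes, only MMP3 and MMP10 were not well above background on every array.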
